A study of Mus musculus with 8 samples.

Results

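The genes of potassium and sodium channels were examined for H3.3-HA peaks in mouse embryonic stem cells (mESCs), Hira-null or wild type (WT). The set comprised every protein-coding GENCODE M1 gene on chromosomes 1 to 19, X and Y whose symbol starts with Kcn, with Hcn and a digit, or with Scn, a number and a or b. Kcnq1 was not included. These were 114 gene models under 111 symbols, out of 22367 protein-coding gene models under 22225 symbols. Kcnb2, Kcnh8 and Scn8a had 2 models each, and these did not overlap. The rule uses symbols and no measured value, but it was set with earlier results of these data known.

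H3.3 is a histone H3 variant placed in chromatin outside replication, and HIRA is a chaperone that delivers it to active genes. All cells carried an HA tag on H3.3. The groups were Hira-null cells at day 15, WT cells at day 15, Hira-null cells at day 0 and WT cells at day 0. The Hira-null cells were a single line (Clone104) and the WT cells were the W9.5 line, so a difference between genotypes cannot be told apart from a difference between these lines. Day 0 cells were undifferentiated, and day 15 cells came from hanging-drop differentiation towards cardiomyocytes, which gives a mixed culture. Each of the 4 conditions had 1 native ChIP library and 1 input library, 8 samples in all, and therefore no difference between conditions could be tested. In such cultures, a smaller share of cells with H3.3 at a site and less H3.3 per cell cannot be told apart.

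Potassium channels set the resting potential and repolarise excitable cells, and voltage-gated sodium channels carry the upstroke of the action potential. HCN channels open on hyperpolarisation and carry the pacemaker current of the sinoatrial node. Most of these genes are known for their roles in neurons, muscle or epithelia, and in the heart a small set of them shapes each phase of the action potential.

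A gene was counted when at least 1 bp of a peak touched its window, which began 10 kb before the transcription start site (TSS) and ended 200 bp past the gene end. The score of a peak is the one the peak caller gave, the negative log10 of its p-value times 10, with a lowest value of 50 in each list. It grows with depth and was ranked only within a list, so scores printed for different lists are not measured against each other. The lists held 7332 peaks in Hira-null day 15, 27272 in WT day 15, 17706 in Hira-null day 0 and 22730 in WT day 0 cells, and read depth is unknown. Of 5 markers of pluripotent cells, 1 had a peak in Hira-null day 15, 1 in WT day 15, 3 in Hira-null day 0 and 4 in WT day 0 cells. Esrrb had 1, 0, 4 and 11 peaks in the same order, Zfp42 had 0, 0, 2 and 8, Nanog had 0, 1, 2 and 3, Pou5f1 had 0, 0, 0 and 4, and Klf4 had none. Among markers of smooth muscle, Acta2 had 3, 1, 0 and 0, Tagln 2, 0, 0 and 0, and Myh11 0, 1, 0 and 0. Of 5 neural markers, 3 were found in the annotation. Tubb3 had 0, 3, 0 and 1, Nes 0, 0, 0 and 1, and Pax6 0, 0, 1 and 2. The part of these cell types in the values at channel genes was not tested. Myh6, Myh7, Tnnt2, Actc1 and Nkx2-5, which define cardiomyocytes, had 0 peaks in all 4 lists. Ryr2, the sarcoplasmic calcium release channel, had between 4 and 5 in each.

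The sequence under the strongest peak of each kind is shown first, since the peaks at channel genes differed in the kind of DNA they covered. Each run holds 300 bases of the mm9 plus strand at the peak midpoint, all within introns. At day 15, the strongest Hira-null peak without a WT peak lay in Kcnq5 (chr1:21622853-21623152), and the strongest peak found in both genotypes lay in Kcnk1 (chr8:128547211-128547510). Capitals in these mark the most frequent run of 12 bases, which occurs 5 times in the Kcnq5 stretch and 13 times in the Kcnk1 stretch.
Kcnq5: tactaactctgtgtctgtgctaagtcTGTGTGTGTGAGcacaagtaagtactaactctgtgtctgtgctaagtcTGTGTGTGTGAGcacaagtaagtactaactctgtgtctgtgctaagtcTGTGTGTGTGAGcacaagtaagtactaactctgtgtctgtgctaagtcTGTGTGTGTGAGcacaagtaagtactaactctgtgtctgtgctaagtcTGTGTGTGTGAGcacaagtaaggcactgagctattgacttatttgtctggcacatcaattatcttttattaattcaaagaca
Kcnk1: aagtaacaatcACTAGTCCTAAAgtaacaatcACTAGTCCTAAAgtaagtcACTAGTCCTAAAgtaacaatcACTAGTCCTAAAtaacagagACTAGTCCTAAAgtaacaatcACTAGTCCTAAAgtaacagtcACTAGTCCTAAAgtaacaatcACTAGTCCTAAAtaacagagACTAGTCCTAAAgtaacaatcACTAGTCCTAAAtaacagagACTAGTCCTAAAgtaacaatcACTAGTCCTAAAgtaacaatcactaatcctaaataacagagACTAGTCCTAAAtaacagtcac
In the other stretches capitals mark CG pairs. The strongest WT day 15 peak without a Hira-null peak lay in Kcnab1 (chr3:65150158-65150457) and its stretch held 1 CG pair.
Kcnab1: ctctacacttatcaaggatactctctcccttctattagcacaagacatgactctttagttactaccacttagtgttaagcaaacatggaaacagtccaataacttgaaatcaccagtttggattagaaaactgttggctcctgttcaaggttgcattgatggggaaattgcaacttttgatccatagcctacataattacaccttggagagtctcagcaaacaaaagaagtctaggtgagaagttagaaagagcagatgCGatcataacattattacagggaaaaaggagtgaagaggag
At day 0, the strongest Hira-null peak without a WT peak lay in Kcnu1 (chr8:26987472-26987771), with 18 CG pairs. The strongest WT peak without a Hira-null peak lay in Kcnj6 (chr16:95077357-95077656), with 1 CG pair. The strongest WT peak shared with Hira-null cells lay in Kcns3 (chr12:11116692-11116991), with 2 CG pairs.
Kcnu1: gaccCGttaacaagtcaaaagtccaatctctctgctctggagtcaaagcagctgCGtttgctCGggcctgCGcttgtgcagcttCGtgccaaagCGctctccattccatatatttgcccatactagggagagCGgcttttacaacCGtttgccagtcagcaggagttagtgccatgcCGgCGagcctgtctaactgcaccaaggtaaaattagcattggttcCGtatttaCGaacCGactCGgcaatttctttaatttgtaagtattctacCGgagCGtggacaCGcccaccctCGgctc
Kcnj6: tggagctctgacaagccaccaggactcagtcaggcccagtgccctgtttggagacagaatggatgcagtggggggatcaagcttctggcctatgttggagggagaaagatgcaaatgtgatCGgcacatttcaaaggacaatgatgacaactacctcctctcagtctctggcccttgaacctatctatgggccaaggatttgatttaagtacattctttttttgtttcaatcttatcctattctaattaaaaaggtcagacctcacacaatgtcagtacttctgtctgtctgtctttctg
Kcns3: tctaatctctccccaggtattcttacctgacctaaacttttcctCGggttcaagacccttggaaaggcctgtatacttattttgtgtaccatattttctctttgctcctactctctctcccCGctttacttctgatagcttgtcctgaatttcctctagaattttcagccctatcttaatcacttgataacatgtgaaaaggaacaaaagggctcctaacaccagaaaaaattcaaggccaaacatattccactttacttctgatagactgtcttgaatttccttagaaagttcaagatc
The Kcnu1 and Kcns3 stretches come from peaks made of sequence with many copies in the genome. In the WT day 0 peak that holds the Kcns3 stretch, all sampled runs of 31 bases had 10 or more copies, with a median of 713, and the values of the Kcnu1 peak are given further on.

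The first question was how many channel genes carried H3.3 at all. Peaks were found at 16 channel genes in Hira-null day 15 cells, at 25 in WT day 15 cells, at 23 in Hira-null day 0 cells and at 22 in WT day 0 cells. Of all protein-coding genes, 13.3% had a peak in Hira-null day 15, 37.1% in WT day 15, 18.9% in Hira-null day 0 and 33.6% in WT day 0 cells. The channel genes are long, with a median window of 40.9 kb against 25.6 kb for other genes, so the number expected from other genes of like length was summed over 20 strata of window length. In Hira-null day 15 cells the share of channel genes with a peak was 14.0% (exact 95% interval 8.24% to 21.8%) against 17.7% expected. In WT day 15 cells it was 21.9% (14.7% to 30.7%) against 44.0% expected. In Hira-null day 0 cells it was 20.2% (13.2% to 28.7%) against 26.3% expected. In WT day 0 cells it was 19.3% (12.5% to 27.7%) against 41.9% expected. The share expected from length thus lay inside the interval in both Hira-null lists and above it in both WT lists. For Hira-null day 0 cells this did not hold once peaks in repeated sequence, described below, were left out, with 8.77% (4.29% to 15.5%) against 19.96% expected. The intervals cover counting error over genes only. The observed number was 0.791 of the expected one in Hira-null day 15, 0.498 in WT day 15, 0.767 in Hira-null day 0 and 0.460 in WT day 0 cells. These are descriptions of single libraries.

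**Figure D1:**
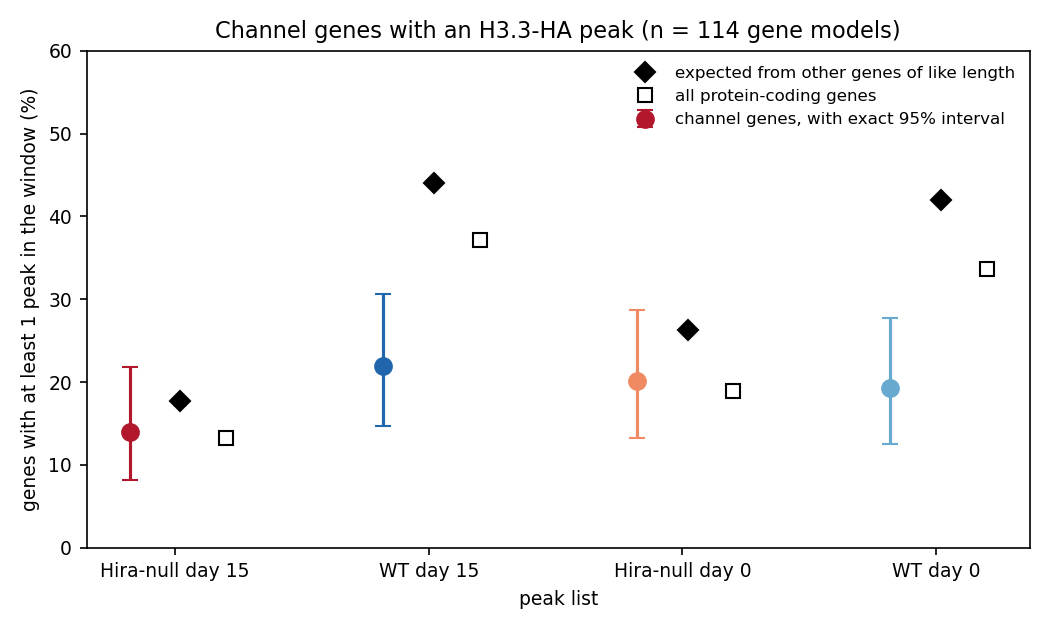
Percent of genes whose window holds 1 or more peaks, by peak list, for 114 channel genes (coloured points, exact 95% interval for counting error), the percent expected from other genes of like length (black diamonds) and the percent of all protein-coding genes (open squares). The expected 17.7% and 26.3% of the Hira-null lists lie inside the channel gene intervals, and the expected 44.0% and 41.9% of the WT lists lie above them, while without repeat peaks, which are not left out here, the Hira-null day 0 share is 8.77% (4.29% to 15.5%) against 19.96% expected.

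No peak in any list was found at 61 channel genes, against 40.7 expected from genes of like length and 45.5% of all genes. The gap to other genes of the same class of length was widest for WT day 15 peaks in long genes. Over 100 kb of window, 7 of 31 channel genes (22.6%, exact 95% interval 9.59% to 41.1%) had a Hira-null day 15 peak, against 27.2% of other genes. In WT day 15 cells, 4 of these 31 genes (12.9%, 3.63% to 29.8%) had a peak, against 58.0% of other genes. At day 0, 12 of the 31 had a Hira-null peak (38.7% against 48.5% of other genes) and 10 had a WT peak (32.3% against 62.1%). From 30 to 100 kb, 7 of 35 channel genes had a Hira-null day 15 peak (20% against 16.2% of other genes), 8 had a WT day 15 peak (22.9% against 48.5%), 8 had a Hira-null day 0 peak (22.9% against 22.6%) and 8 a WT day 0 peak (22.9% against 44.2%). Under 30 kb, 2 of 48 channel genes had a Hira-null day 15 peak (4.17% against 8.71%) and 3 a Hira-null day 0 peak (6.25% against 10.5%). In WT day 15 cells 13 of the 48 (27.1%, 15.3% to 41.9%) had a peak, against 26.5% of other genes of that length, but the density was 14.9 peaks per Mb against 29.0. In WT day 0 cells 4 of the 48 (8.33%, 2.32% to 19.98%) had one, against 21.8%. By density, channel gene windows held 1.56 peaks per Mb in Hira-null day 15 and 2.87 in WT day 15 cells, against 3.80 and 20.7 in other gene windows. At day 0 they held 3.11 in Hira-null and 2.62 in WT cells, against 5.50 and 13.2 in other gene windows.

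The counts depended on how long each list was and on how strong a peak had to be. With each list held to its 7332 highest scores, 16 channel genes had a Hira-null day 15 peak and 5 a WT day 15 peak. The order of the genotypes thus turned round among channel genes, and at day 0 the numbers were 10 and 5. Against the number expected from length, these were 0.791 and 0.216 at day 15 and 0.636 and 0.218 at day 0, Hira-null first. With a score of at least 100 in every list, the numbers were 6 for Hira-null day 15, 7 for WT day 15, 12 for Hira-null day 0 and 5 for WT day 0 cells. The ratios to the number expected from length were then 0.545, 0.231, 0.584 and 0.209 in the same order.

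The channel classes were then taken in turn. Voltage-gated potassium alpha subunits, the pore-forming Kv proteins and their modulatory relatives, were the largest class with 41 gene models. Of these, 5 had a peak in Hira-null day 15, 10 in WT day 15, 7 in Hira-null day 0 and 9 in WT day 0 cells, and the numbers expected from length were 7.53, 17.2, 10.9 and 16.7. Kcns3, a modulatory subunit with no current of its own, had 0 peaks in Hira-null day 15, 0 in WT day 15, 2 in Hira-null day 0 and 2 in WT day 0 cells. The Kcns3 peaks all lay in an intron 40.8 to 45.8 kb past the TSS, and one Hira-null day 0 peak of 2882 bp overlapped both WT day 0 peaks, of 822 and 826 bp. Its score of 477.9 was the highest of any channel gene peak in that list. Kcnq5, a subunit of the neuronal M-current, was 1 of 2 channel genes with a peak in all 4 lists (the other was Kcnmb4), with 2, 1, 1 and 1 peaks. Kcng1, a modulatory subunit of Kv2 channels, had 2 Hira-null day 15 peaks, 1 WT day 15 peak, 0 Hira-null day 0 peaks and 1 WT day 0 peak. Its day 15 peak 2.34 kb upstream of the TSS in Hira-null cells overlapped the WT day 15 peak 2.23 kb upstream.

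Several Kv genes had a peak in 1 genotype of a day. Kcnh3, an ELK-type subunit of forebrain neurons, had 1 WT day 15 peak 5.26 kb upstream of its TSS (score 94.2) and no other. Kcnq3, a subunit of the neuronal M-current, had 2 Hira-null day 0 peaks of 3456 and 2343 bp and none in the other lists. Kcnh6, an ERG-type subunit, likewise had 2 peaks, both in Hira-null day 0 cells. The peaks of Kcnq3 and Kcnh6 all lay in sequence with many copies in the genome. Kcnh1, an EAG-type subunit, had 1 Hira-null day 15 peak (score 134.2) in an intron 263.3 kb past the TSS. Kcnb2, a delayed rectifier subunit, had 1 Hira-null peak at each day at the same place, 109.4 kb past the TSS at day 15 and 109.6 kb at day 0, with no WT peak.

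Auxiliary and interacting subunits, which change the gating or traffic of the pore proteins, counted 17 genes, and 3 had a peak in Hira-null day 15, 4 in WT day 15, 3 in Hira-null day 0 and 4 in WT day 0 cells. The numbers expected from length were 3.03, 6.98, 4.42 and 6.80. Kcnab1, a cytoplasmic beta subunit of Shaker-type channels, had 1 peak in Hira-null day 15 cells, 6 in WT day 15 cells and 0 at day 0 in both genotypes, and 6 was the most at any channel gene in any list. The Kcnab1 peaks began 171.5 kb past the TSS, and 5 of the 6 lay between 192.6 and 267.6 kb past it with no Hira-null peak over them. Scores of those 5 were 61.5, 189.7, 152.8, 176.9 and 125.2 in the order of the gene. The TSS nearest to each of the 6 was that of Ssr3, 15.7 to 111.8 kb away. The Hira-null day 15 peak (score 273.1, above 86.6% of its list) overlapped the remaining WT peak (score 83.9, above 47.2% of its list). Both lay in sequence with many copies in the genome. Kcnmb4, a beta subunit of BK channels enriched in brain, had 2 peaks in Hira-null day 15, 2 in WT day 15, 1 in Hira-null day 0 and 4 in WT day 0 cells. A peak about 2 kb upstream of the Kcnmb4 TSS recurred in 3 lists, at 2.19 kb in Hira-null day 15 (score 75.3), 1.97 kb in WT day 15 (127.3) and 1.86 kb in WT day 0 cells (78.2). Kcnip4, a calcium-binding partner of Kv4 channels and the longest channel gene at 1135 kb, had 4 Hira-null day 0 peaks, 1 WT day 0 peak and 0 at day 15. Kcnip1, of the same family, had the reverse at day 0, with 0 Hira-null and 4 WT peaks, whose scores of 53.9 to 66.3 were low.

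**Figure D2:**
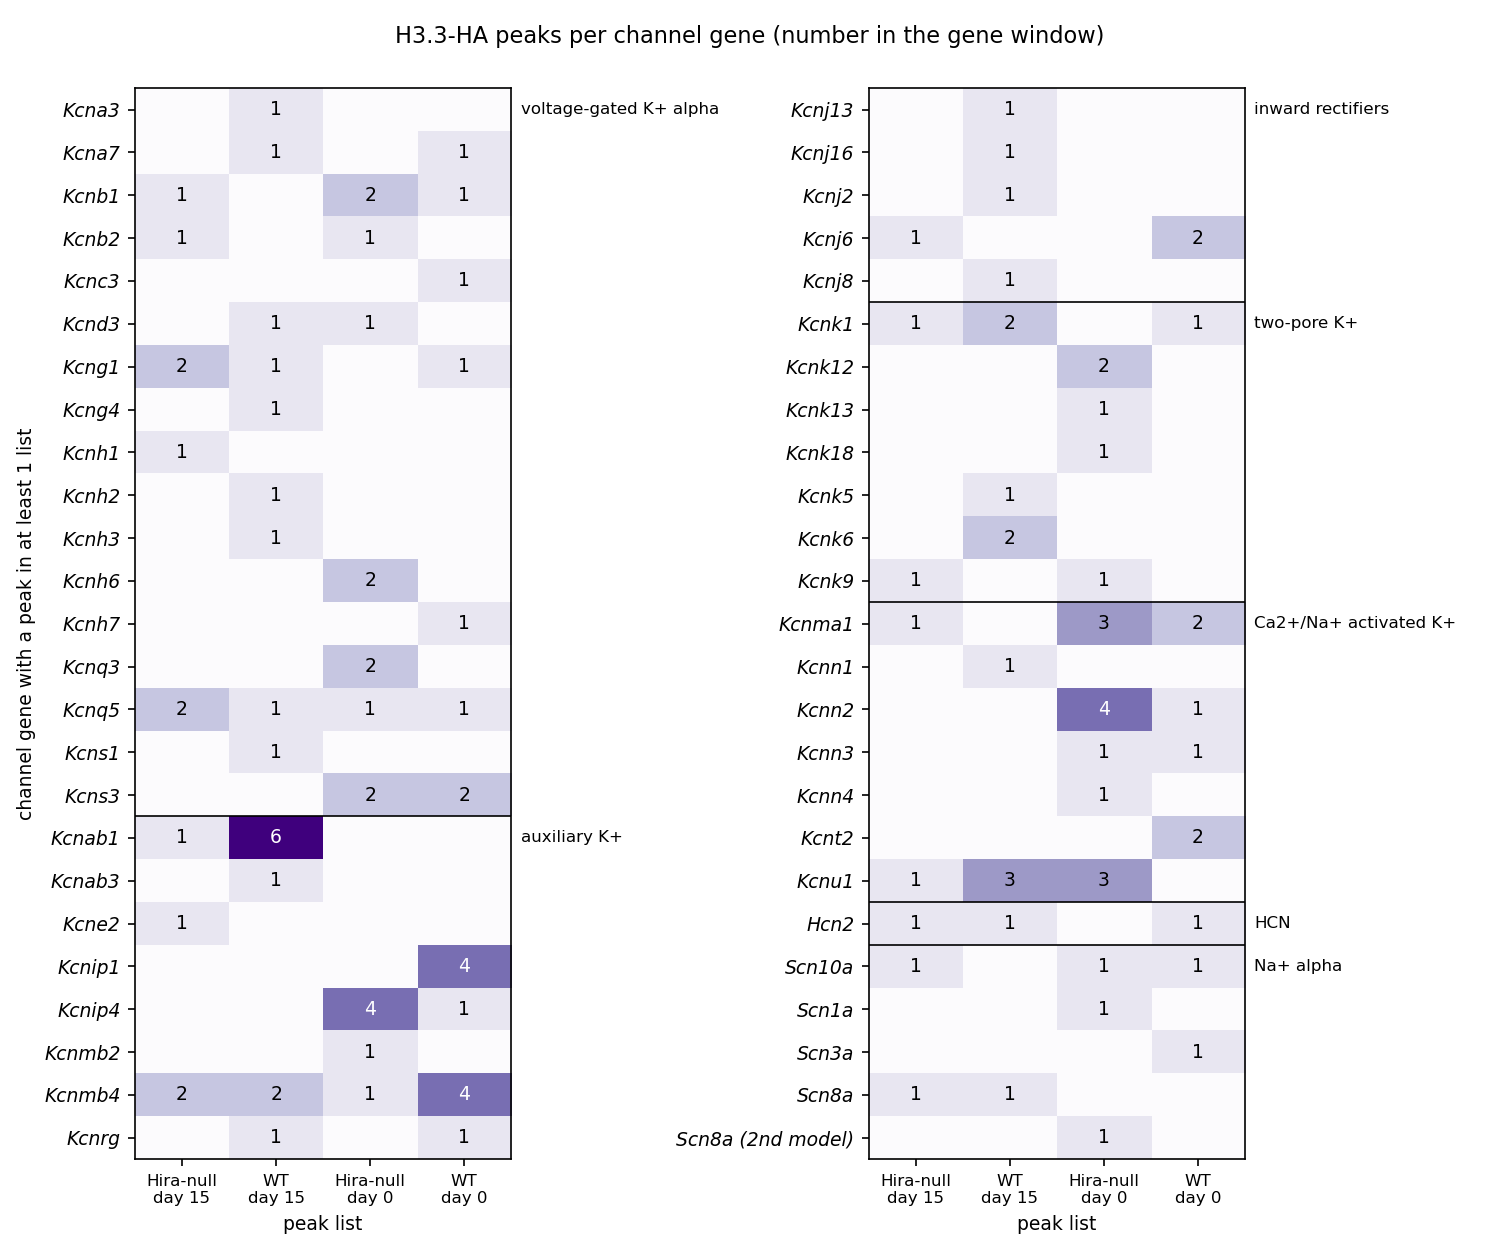
Number of H3.3-HA peaks in the window of the channel genes reported here that had a peak in at least 1 list (rows, by class) in the 4 peak lists (columns); darker cells hold more peaks and empty cells hold 0. Kcnab1 in WT day 15 cells has the highest count, 6, and Kcnmb4 and Kcnq5 are the 2 genes with a peak in every list.

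Inward rectifiers, which hold the resting potential and couple it to metabolism, had a peak at 1 of 15 genes in Hira-null day 15, 4 in WT day 15, 0 in Hira-null day 0 and 1 in WT day 0 cells, against 2.28, 6.36, 3.13 and 5.71 expected from length. The 4 in WT day 15 cells were Kcnj2, Kcnj8, Kcnj13 and Kcnj16, and none of them had a peak in another list. Kcnj6, a G protein-gated channel of neurons, had 1 peak in Hira-null day 15 cells and 2 in WT day 0 cells, at other positions. The stronger of the WT day 0 peaks (score 130.1) lay 141.8 kb past the TSS.

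Among 14 genes of two-pore domain channels, which carry background potassium current, 2 had a peak in Hira-null day 15, 3 in WT day 15, 4 in Hira-null day 0 and 1 in WT day 0 cells, against 2.01, 6.08, 2.95 and 5.39 expected from length. Kcnk1 had 1, 2, 0 and 1 peaks in the same order. The peak over its tandem repeat, 28.4 kb past the TSS, had a score of 595.8 in Hira-null day 15 cells (above 95.6% of that list), 254.2 in WT day 15 cells (93.6%) and 78.0 in WT day 0 cells (47.6%). In Hira-null day 0 cells no peak was listed there. Kcnk6, a close relative of Kcnk1, had 2 WT day 15 peaks, with midpoints at -1.17 and -5.45 kb from its TSS, and none in the other lists. Kcnk12, a halothane-sensitive type, had 2 Hira-null day 0 peaks (scores 393.3 and 142.7) and none in the other lists. Kcnk9, an acid-sensitive type, had 1 Hira-null peak at each day and no WT peak.

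The class set by the symbols Kcnma, Kcnn, Kcnt and Kcnu holds mostly channels activated by calcium or sodium. It had the highest share of the classes with a Hira-null day 0 peak. This was 5 of 8 genes, against 3.15 expected from length. In Hira-null day 15 cells 2 of the 8 had a peak (1.96 expected), in WT day 15 cells 2 (4.09) and in WT day 0 cells 4 (4.29). Without repeat peaks the 5 became 2 of 8 in Hira-null day 0 cells, and the 2 became 0 in Hira-null day 15 cells. Kcnma1, the pore of BK channels, had 1 peak in Hira-null day 15, 0 in WT day 15, 3 in Hira-null day 0 and 2 in WT day 0 cells. Both WT day 0 peaks of Kcnma1 overlapped Hira-null day 0 peaks, and the one Hira-null peak left, 180.8 kb past the TSS, overlapped the Hira-null day 15 peak. Kcnn2, a small-conductance channel of neurons and atria, had 4 Hira-null day 0 peaks in 2 adjoining pairs at about 25 and 92 kb past the TSS, and 1 WT day 0 peak elsewhere (360.1 kb). Kcnu1, the potassium channel of sperm, was counted in this class by its symbol and not by its gating. Kcnu1 had 1 peak in Hira-null day 15, 3 in WT day 15, 3 in Hira-null day 0 and 0 in WT day 0 cells. Its density of 0.0304 WT day 15 peaks per kb was the higher of the 2 channel genes with 3 or more such peaks, against 0.0215 at Kcnab1. One of the 3 Kcnu1 peaks, 7.39 kb upstream, touched the body of Ash2l, whose TSS was nearest. Kcnu1 reaches 3 only with that peak. Kcnt2, a sodium-activated channel, had 2 WT day 0 peaks (scores 128.6 and 57.5) and no other.

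Sodium channel alpha subunits, which form the pore, counted 11 gene models, and 2 had a peak in Hira-null day 15, 1 in WT day 15, 4 in Hira-null day 0 and 2 in WT day 0 cells. The number expected from length was 2.11 in Hira-null day 15, 6.14 in WT day 15, 3.73 in Hira-null day 0 and 5.85 in WT day 0 cells. Scn10a, best known from sensory neurons, had 1 Hira-null day 15 peak, 0 in WT day 15 cells, 1 in Hira-null day 0 and 1 in WT day 0 cells. The 2 day 0 peaks of Scn10a overlapped, with a score of 54.1 in Hira-null cells (above 5.0% of that list) and 128.6 in WT cells (79.1%). Sodium beta subunits, small adhesion-type partners of the pore, had 0 of 4 genes with a peak in all 4 lists, where length alone gave 0.519 to 1.56 genes. Of the HCN genes, Hcn2 had a peak and the other 3 had none. Hcn2 had 1 peak in Hira-null day 15 cells (score 62.0, above 21.7% of that list) and 1 in WT day 15 cells (150.8, above 80.5%). At day 0 it had 0 in Hira-null cells and 1 in WT cells (115.8, above 74.1%). The Hcn2 peaks lay 4.32 to 4.90 kb upstream of its TSS and touched the body of Bsg, the neighbouring gene.

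A list of 27 channel genes known from the heart was read separately, since the cells were differentiated towards cardiomyocytes. Peaks were found at 3 of them in Hira-null day 15, 5 in WT day 15, 4 in Hira-null day 0 and 3 in WT day 0 cells, against 4.66, 11.7, 6.79 and 11.02 expected from length. The 5 in WT day 15 cells were Hcn2, Kcnd3 (transient outward current), Kcnh2 (rapid delayed rectifier current), Kcnj2 (inward rectifier current) and Kcnj8 (pore of ATP-sensitive channels), with 1 peak each. Of these, the Hcn2 peak overlapped a Hira-null day 15 peak and the other 4 did not. Kcne2, an auxiliary subunit, had 1 peak, in Hira-null day 15 cells (score 51.9). No list held a peak at 18 of the 27 genes, among them Hcn4, the main pacemaker channel gene, Kcnj3 and Kcnj5 (acetylcholine-gated current of the atria), Kcna5, Kcnd2 and Kcnip2. A list of 21 neuronal channel symbols, in 23 gene models, had a peak at 6 in Hira-null day 15, 2 in WT day 15, 6 in Hira-null day 0 and 8 in WT day 0 cells, against 5.47, 11.4, 8.80 and 12.0 expected. Kcnd2 was on both lists.

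Genes of other ion transport were set beside the channels. Voltage-gated calcium channel subunits, 26 genes, had a peak at 5 in Hira-null day 15, 8 in WT day 15, 5 in Hira-null day 0 and 11 in WT day 0 cells, against 6.05, 13.6, 9.72 and 13.7 expected from length. Subunits of the sodium pump, 8 genes, had a peak at 0, 4, 2 and 3 in the same order, against 1.16, 3.40, 1.43 and 3.01 expected.

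The comparison of genotypes within a day asked where H3.3 at channel genes was listed without HIRA. A WT peak with no Hira-null peak over it on that day is called HIRA-dependent here, which names a comparison of 2 lists and not a cause. At day 15, 13 of 19 Hira-null peaks had no WT peak over them (68.4%, 43.4% to 87.4%), against 61.2% at other genes. At day 0 the same held for 31 of 38 Hira-null peaks (81.6%, 65.7% to 92.3%), against 64.5% at other genes, a value just below the interval. The 38 peaks included 10 neighbouring pairs no more than 5 kb apart, which the interval treats as separate. Without the repeat peaks described below the day 0 share was 72.7% (8 of 11), with no value at other genes to set beside it. In the other direction, 29 of 35 WT day 15 peaks at channel genes were HIRA-dependent (82.9%, exact 95% interval 66.3% to 93.4%), against 93.3% of the WT peaks at other genes. They lay at 23 channel genes, with 48.1 expected from length and 35.4% of all genes in that state. At day 0, 24 of 32 WT peaks were HIRA-dependent (75%, 56.6% to 88.5%), against 83.7% at other genes, and they lay at 17 channel genes, with 41.8 expected and 29.5% of all genes.

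By gene, 8 channel genes had a Hira-null and no WT peak at day 15, with 5.56 expected from length and 3.84% of all genes (7.02% of channel genes). At day 0 there were 14, with 8.48 expected and 6.32% of all genes (12.3% of channel genes). Of these 14, Kcnb2, Kcnh6, Kcnk12, Kcnk18, Kcnn4, Kcnq3, Kcnu1, Scn1a and Scn8a had only repeat peaks at day 0. The count was not repeated without such peaks. In the reverse direction, 17 channel genes had a WT and no Hira-null peak at day 15, with 35.5 expected and 27.7% of all genes, and 13 had one at day 0, with 26.3 expected and 21.1% of all genes. The exact 95% interval of the channel gene share excluded the share expected from length in both reverse cases and included it in both forward cases. Peaks in both genotypes were found at 8 channel genes at day 15, which is 50% of those with a Hira-null peak and 32.0% of those with a WT peak. Of all genes, 9.46% had a peak in both genotypes at day 15, which is 71.1% of those with a Hira-null peak and 25.5% of those with a WT peak. At day 0 it was 9 channel genes, or 39.1% and 40.9%, and 12.6% of all genes, or 66.5% and 37.4%. The numbers expected from length were 14.7 at day 15 and 21.5 at day 0. With lists of equal length the HIRA-dependent share at day 15 was 42.9% and lay at 1 gene, and at day 0 the share was 80%.

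Between days, 8 of the 16 channel genes with a Hira-null day 15 peak (50%) also had a Hira-null day 0 peak, and these were 34.8% of the 23 genes at day 0. Over all genes the same shares were 45.9% and 32.4%. In WT cells the overlap was also 8 genes, 32.0% of the day 15 genes and 36.4% of the day 0 genes, against 59.85% and 66.1% over all genes. Of the Hira-null day 15 peaks, 4 of 19 (21.1%) overlapped a Hira-null day 0 peak, against 22.1% at other genes, and 4 of 35 WT day 15 peaks (11.4%) overlapped a WT day 0 peak, against 22.5% at other genes. A peak in Hira-null day 15 cells alone was found at 2 channel genes, Kcne2 and Kcnh1, with 1.95 expected from length and 1.52% of all genes. A peak in WT day 15 cells alone, the longest list, was found at 13, with 12.7 expected and 11.2% of all genes. A peak in Hira-null day 0 cells alone was found at 10 gene models (8.77%, exact 95% interval 4.29% to 15.5%), with 4.82 expected (4.23%) and 3.78% of all genes. Of these 10, Kcnh6, Kcnk12, Kcnk18, Kcnn4, Kcnq3, Scn1a and Scn8a had only repeat peaks, described below. The count was not repeated without such peaks. A peak in WT day 0 cells alone was found at 6, with 7.03 expected and 5.94% of all genes.

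Position in the gene differed between the lists. In Hira-null day 15 cells 5 of 19 peaks had their midpoint upstream of the TSS (26.3%) and 14 in introns (73.7%, exact 95% interval 48.8% to 90.8%, against 53.6% at other genes). In WT day 15 cells 19 of 35 peaks (54.3%, 36.7% to 71.2%) lay upstream, against 26.0% at other genes. Introns held 15 (42.9%), against 63.0% at other genes. In Hira-null day 0 cells 3 of 38 lay upstream and 35 in introns (92.1%, 78.6% to 98.3%, against 64.3% at other genes). In WT day 0 cells 8 of 32 lay upstream (25%) and 22 in introns (68.7%). Channel genes differ in length from other genes, and these shares were not adjusted for it.

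**Figure D3:**
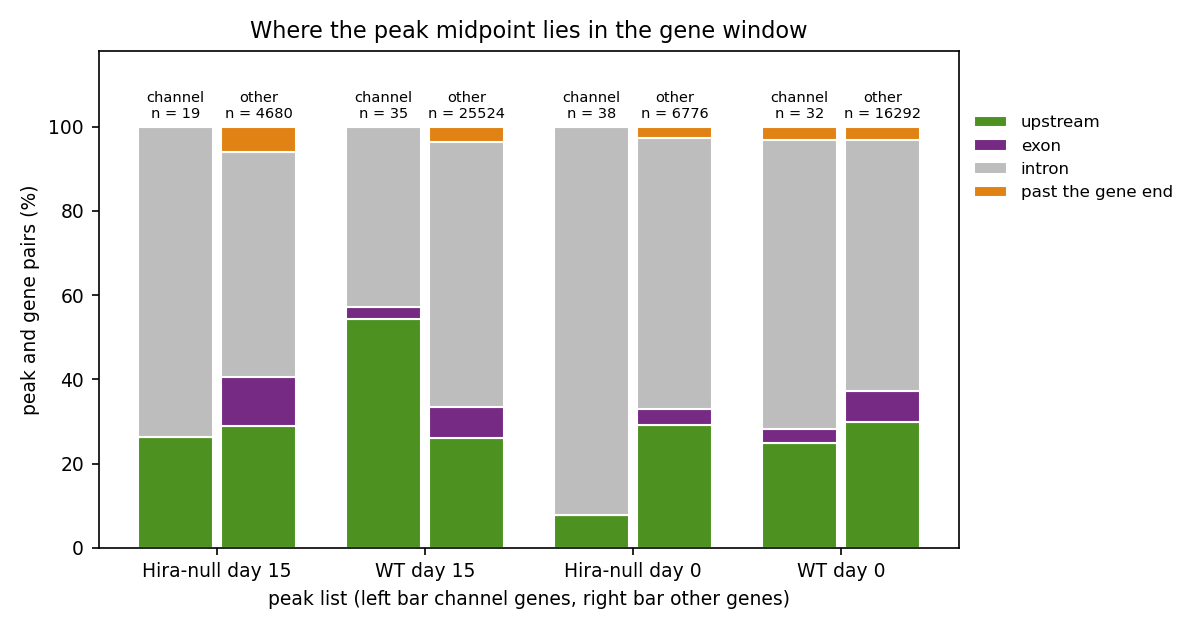
Percent of peak and gene pairs by where the peak midpoint lies in the gene window, for channel genes (left bar of each pair) and other genes (right bar) in the 4 peak lists, with the number of pairs above each bar. Upstream sequence holds 54.3% of the WT day 15 pairs at channel genes, and introns hold 92.1% of the Hira-null day 0 pairs.

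No Hira-null peak touched the 1 kb on either side of a channel gene TSS on either day. The count was 0 of 19 at day 15, which allows a share of up to 15.8% (3 counts of the total). At day 0 it was 0 of 38, which allows 7.89%, and the genes expected were 0.892 and 1.28. A peak was counted when any base touched this span. Midpoints could lie farther away, as at Kcnj8 in WT day 15 cells (1.535 kb upstream). In WT day 15 cells 10 channel genes had such a peak. They were Kcna3, Kcna7, Kcnab3, Kcnh2, Kcnj2, Kcnj8, Kcnk1, Kcnk5, Kcnk6 and Kcns1, and none of these peaks overlapped a Hira-null day 15 peak. Their scores ran between 50.5 at Kcna7 and 101.8 at Kcnk6, and those of Kcnab3, Kcnj2 and Kcnk6 lay above the median of channel gene peaks in the list, 79.8. The 10 were 8.77% of channel genes (exact 95% interval 4.29% to 15.5%), with 15.4 expected from length, and the interval included the 12.6% of other genes. In WT day 0 cells 1 channel gene, Kcnh7, had one, with 10.7 expected. Kcnj2 is an example. Its WT day 15 peak of 1264 bp (chromosome 11, 110927480 to 110928743, mm9) began at the TSS and ran into the first part of the gene, with 2.06 CpG per 100 bp and a score of 86.8. Kcnh2 had a peak of 576 bp centred 0.712 kb upstream of its TSS, with 3.65 CpG per 100 bp and a score of 51.0. At a score of at least 100, the Kcnk6 peak was the only one of the 10 left.

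Repeated sequence was examined last, after the strongest Hira-null peaks had been seen to lie in it. A peak was called multi-copy when at least 50% of its 31-base runs, sampled every 25 bp, occurred 10 or more times in the genome. At day 15, 4 of 19 channel gene peaks were multi-copy in Hira-null cells (21.1%, exact 95% interval 6.05% to 45.6%, against 6.58% at other genes) and 1 of 35 in WT cells (2.86%, 0.0723% to 14.9%, against 0.542%). Of the whole day 15 lists, 9.96% in Hira-null and 0.968% in WT cells were multi-copy. In Hira-null day 0 cells 22 of 38 were multi-copy (57.9%, 40.8% to 73.7%), against 25.5% of the peaks at other genes and 35.8% of the whole list. Among peaks in introns alone, the shares were 61.1% (43.5% to 76.9%) and 27.3%. In WT day 0 cells 5 of 32 were multi-copy (15.6%, 5.28% to 32.8%), against 3.92% at other genes and 9.90% of the whole list, which lies inside the interval. The 22 multi-copy peaks of Hira-null day 0 cells lay at 11 genes, often as neighbours, so they are fewer independent places than peaks.

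All 5 multi-copy peaks of WT day 0 cells overlapped Hira-null peaks, at Kcnip4, Kcnma1, Kcnq5 and Kcns3. Of the 31 Hira-null day 0 peaks with no WT peak over them 18 were multi-copy. Of the 24 WT day 0 peaks with no Hira-null peak over them 0 were, which allows a share of up to 12.5%. The whole day 0 lists were 35.8% multi-copy in Hira-null and 9.90% in WT cells. Peaks of other genes were not split in this way, so the contrast is not shown to be particular to channel genes. The multi-copy peaks were also wide. In Hira-null day 0 cells their median width was 2792 bp, against 1034 bp for the other channel gene peaks, and the median scores were 193.6 and 80.6. The Kcnu1 peak shown above spanned 2775 bp with 3.50 CpG per 100 bp, where the median of all Hira-null day 0 peaks was 1.42, and 98.2% of its sampled runs had 10 or more copies, with a median of 831.5. At Kcnk12 the shares were 97.9% and 98.8% for its pair of peaks, with medians of 638 and 1092 copies. Kcns3 had 96.5% and 97.3%, with medians of 815 and 1132. The 4 peaks of Kcnn2 had 90.4% to 95%, and those of Kcnip4 76.0% to 95%.

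**Figure D4:**
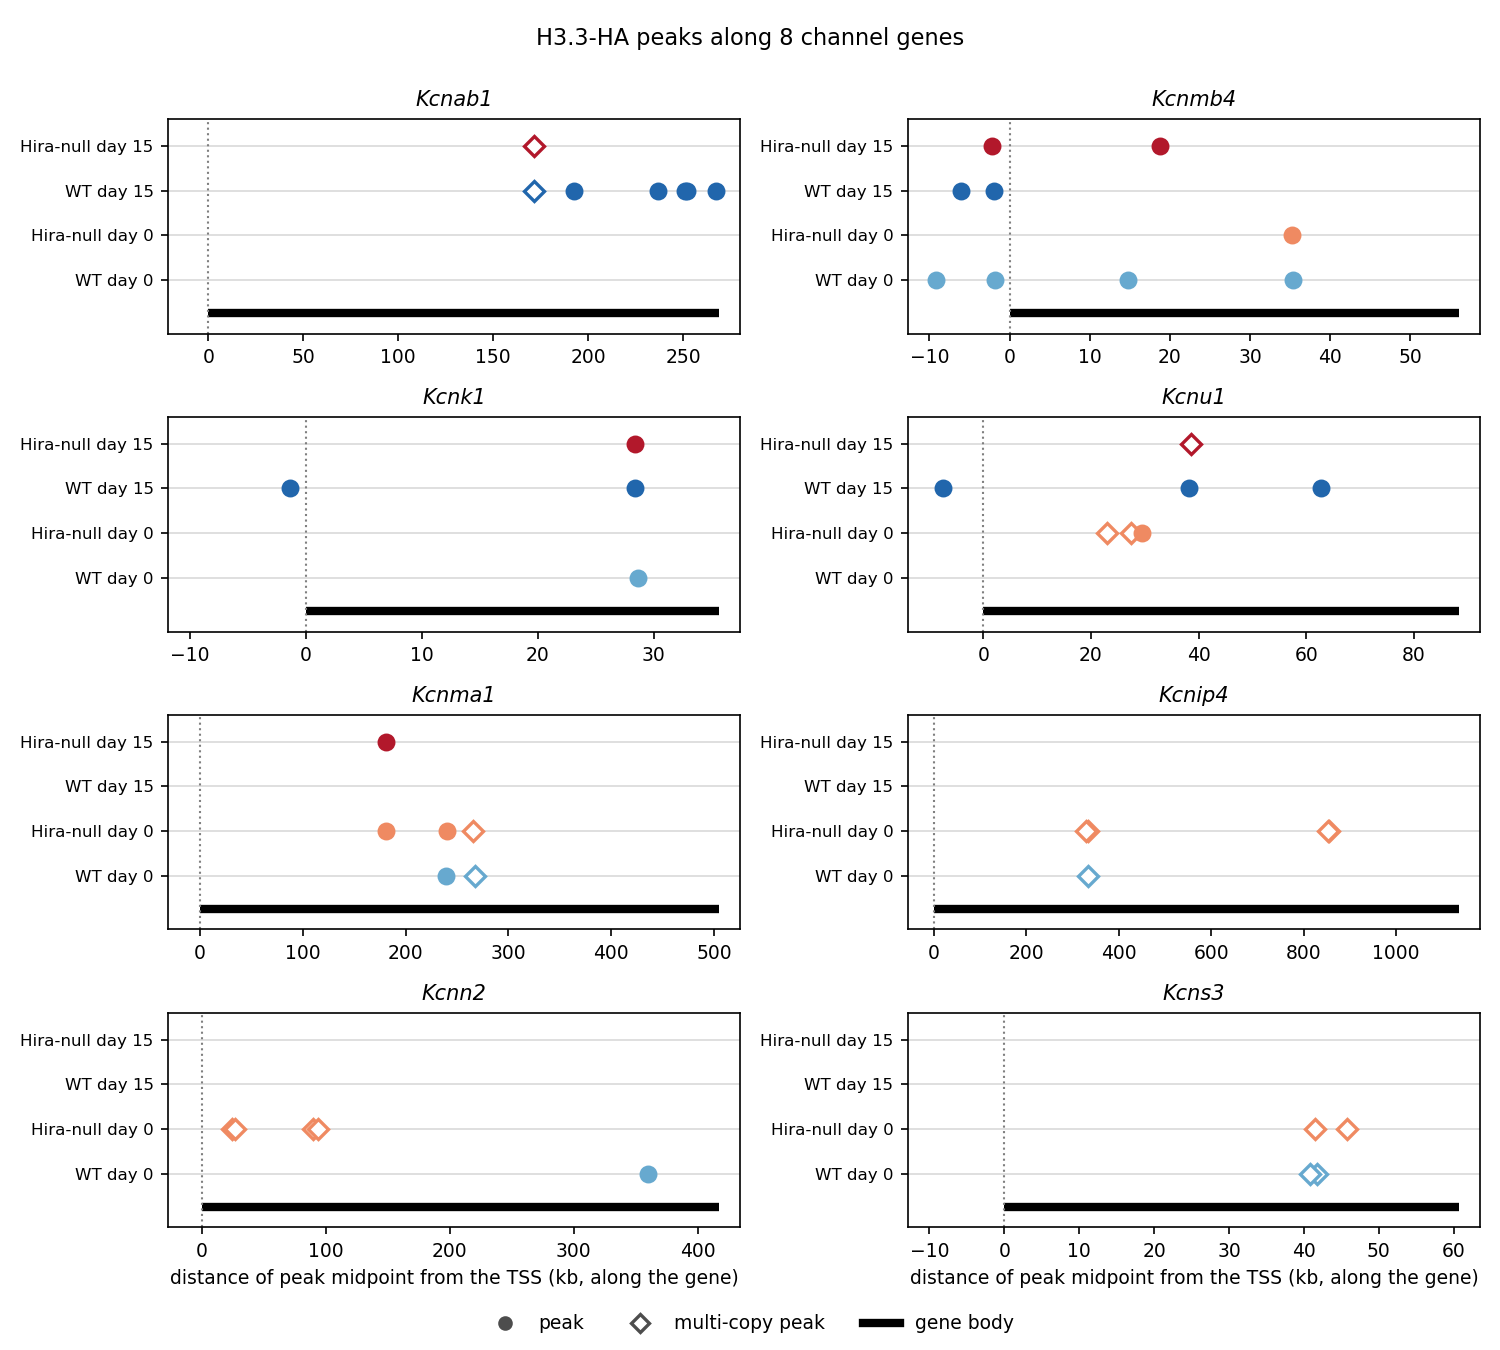
Position of each H3.3-HA peak along 8 channel genes, as the distance of its midpoint from the TSS in kb, in the 4 peak lists; filled circles are peaks, open diamonds are multi-copy peaks and the black bar is the gene body. Kcnab1 carries 6 WT day 15 peaks past 170 kb, and the Hira-null day 0 peaks of Kcnip4, Kcnn2 and Kcns3 are all multi-copy and lie in close pairs.

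Internal repeats were a second measure, which does not show whether the copies lie in tandem. A peak could meet both measures, and 27 of 38 Hira-null day 0 peaks met at least 1. Peaks in which at least 20% of the 15-base runs recurred within the same peak were 6 of 19 in Hira-null day 15 (31.6%, 12.6% to 56.6%, against 18.2% at other genes), 1 of 35 in WT day 15, 8 of 38 in Hira-null day 0 (21.1%, 9.55% to 37.3%, against 9.31%) and 1 of 32 in WT day 0 cells. Both WT cases were the Kcnk1 repeat. In the Kcnq5 peak shown above the share was 38.3%, in the Kcnk1 peak of Hira-null day 15 cells 54.0%, and in Kcnb2 82.8% at day 15 and 81.1% at day 0. Both Kcnb2 peaks were also multi-copy, with 62.5% and 52.5% of their 31-base runs.

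**Figure D5:**
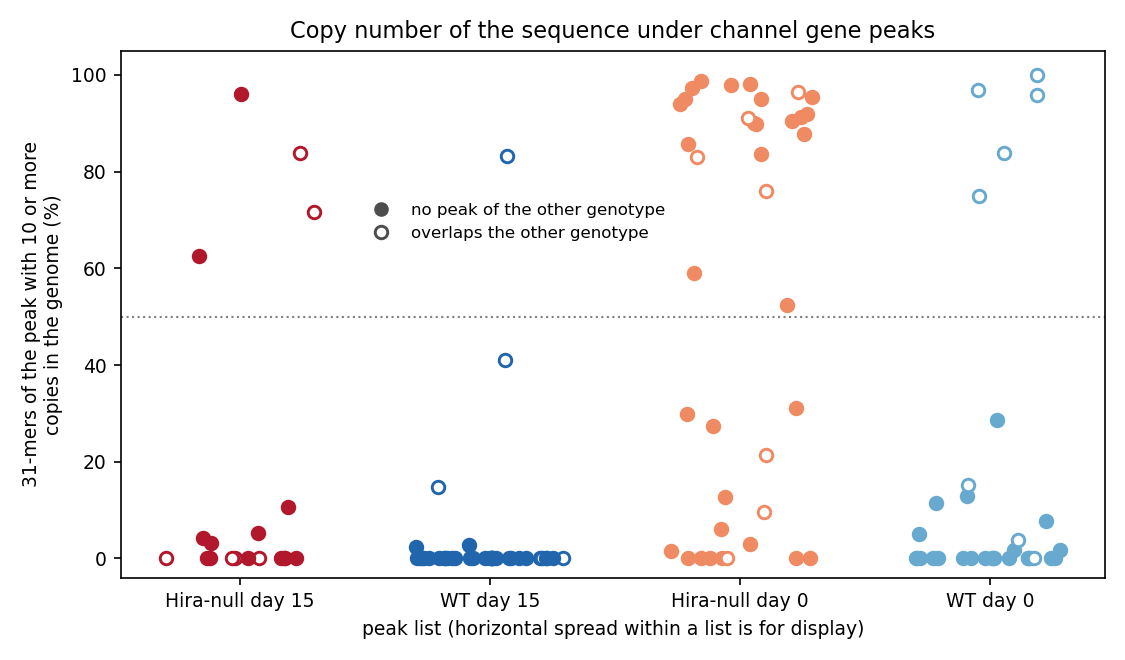
Share of the 31-base runs of each channel gene peak that occur 10 or more times in the genome, by peak list; filled points have no peak of the other genotype on the same day, open points do, and the dotted line marks 50%. In Hira-null day 0 cells 22 of 38 peaks lie above the line, and in WT cells every point above it is open. Peaks of other genes are not shown.

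Without the multi-copy peaks and those with internal repeats, 9 channel genes had a peak in Hira-null day 15, 25 in WT day 15, 10 in Hira-null day 0 and 18 in WT day 0 cells. The corresponding numbers expected from length, with such peaks left out everywhere, were 15.2, 49.2, 22.7 and 45.2. The observed number was then 0.593, 0.508, 0.440 and 0.399 of the expected one in the same order, and the expected share lay above the exact interval in the WT lists and in Hira-null day 0 cells, and inside it in Hira-null day 15 cells (7.89%, 3.67% to 14.5%, against 13.3% expected). How reads that match many places were placed is not given in the sources used here, and the part of read placement in these peaks was not tested.

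Chromosomes 8 and 11, where WT peaks were dense, held 13 of the channel genes. They carried 9.57% of the Hira-null day 15 peaks, 33.4% of the WT day 15, 9.26% of the Hira-null day 0 and 19.97% of the WT day 0 peaks of the whole lists. Of the 13 genes, 2 had a peak in Hira-null day 15, 7 in WT day 15, 2 in Hira-null day 0 and 2 in WT day 0 cells. The share of all genes on these chromosomes with a peak was not counted, so these numbers cannot be read against a background. Among the remaining channel genes the numbers were 14, 18, 21 and 20, or 0.767, 0.448, 0.773 and 0.496 of those expected from length.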

How the data were processed

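H3.3-HA was mapped by native ChIP-seq with micrococcal nuclease in 4 conditions, with 1 ChIP and 1 input library each, grouped by the sample labels. According to the study's methods and the submitters' processing notes, the authors aligned paired-end reads to mm9 with Bowtie, removed duplicates with Samtools and called peaks with MACS 1.4.2 at its default threshold. The deposited files, 1 peak list per condition, hold a position and a score per peak, and the score is the negative log10 of the p-value times 10. Input libraries, the control used for each list and read depth were not analysed here, so list length also carries depth.

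Genes came from GENCODE M1 on NCBIM37, the build of the files, and sequences from that genome. Overlaps were counted in Python 3.11.15 with numpy 2.4.6, scipy 1.17.1 and pysam 0.24.0, and figures were drawn with matplotlib 3.10.9. In each list, 0 of 22367 gene windows were counted otherwise than by bedtools 2.31.1, and the code was tested on simulated data. Expected numbers sum, over channel genes, the share of other genes with a peak in the same of 20 strata of window length. Intervals are exact Clopper-Pearson intervals of 95% and cover counting error only, and an upper limit beside a count of 0 is 3 counts of the total. No p-values were computed, because each condition has 1 library.

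The channel genes and the gene lists were chosen with earlier results of these data known. The genes named in full were set by a rule: the 6 with the most peaks in each list, the 5 with the strongest peak of each kind per day (Hira-null without WT, WT without Hira-null, and shared), the heart list, and the genes with the most WT day 15 peaks per kb among those with at least 3. Others are named as examples of a class or a count, chosen after their values were seen. Some genes that the rule names are not reported here by name, and they stay in all counts. Alternatives were a score of at least 100, lists of equal length, the gene body alone, peaks in the window of no other gene, chromosomes 8 and 11 left out, the peak midpoint in the window, 10 strata, an overlap over 50% or more of the peak, and the other list widened by 1 kb. Leaving out repeated sequence, and both measures of it, were chosen after the data were seen.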

Additional observations from a re-analysis of the deposited data

Results flagged for a closer look

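The difference between genotypes had opposite signs on the 2 days. Hira-null minus WT channel genes with a peak was -9 at day 15 and 1 at day 0, and Hira-null minus WT peaks at channel genes was -16 at day 15 and 6 at day 0. The signs were the same on both days under 3 alternatives. With lists of equal length the difference in genes was 11 at day 15 and 5 at day 0 and that in peaks 12 and 11, without repeat peaks they were -16 and -8 and -23 and -15, and with the gene body alone the difference in genes was 3 and 6 (in peaks -2 and 12). This difference between the days was not tested, since each condition has 1 library. The whole lists differed by -19940 peaks at day 15 and -5024 at day 0, in the same direction on both days.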

How the results depend on the processing

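The 14 counts, ratios and shares of the report were recomputed under each alternative. They all stayed close to the reported values (within 1.5 times for counts, within the exact interval for ratios and shares) with peaks in the window of no other gene, without chromosomes 8 and 11 and with the peak midpoint in the window, and so did the 4 ratios with 10 strata and the 6 HIRA-dependence results with the other list widened by 1 kb. Every ratio of observed to expected genes stayed below 1 under all alternatives. With a score of at least 100, channel genes with a peak numbered 6 in Hira-null day 15, 7 in WT day 15, 12 in Hira-null day 0 and 5 in WT day 0 cells, the WT ratios to the expected number were 0.231 at day 15 and 0.209 at day 0, 5 and 4 genes had a HIRA-dependent peak at day 15 and day 0, and 95.2% of Hira-null day 0 peaks lacked a WT peak. Holding all lists to equal length gave 5 in WT day 15, 10 in Hira-null day 0 and 5 in WT day 0 cells, with WT ratios of 0.216 and 0.218, a HIRA-dependent share of 42.9% at day 15, 1 and 4 genes with a HIRA-dependent peak, and a Hira-null day 0 share of 93.8%. With the gene body alone, 10 genes had a WT day 15 peak (0.247 of the expected number), and 9 and 10 had a HIRA-dependent peak at day 15 and day 0. Where an overlap had to cover 50% or more of the peak, the Hira-null day 0 share without a WT peak was 94.7%. Without multi-copy peaks and those with internal repeats, 9 genes had a Hira-null day 15 peak and 10 a Hira-null day 0 peak (0.440 of the expected number). The score, length, gene body and repeat settings keep fewer peaks by construction, and any other cause was not tested. No paired analysis was possible because each condition has 1 library, and no replicate could be left out. Read depth is unknown, so an absent peak means not listed, not absent H3.3.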

Other observations

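Some peaks in channel gene windows lay closer to another gene's start. The nearest TSS was that of the channel gene for 16 of 19 Hira-null day 15 peaks, 23 of 35 WT day 15 peaks, 29 of 38 Hira-null day 0 peaks and 24 of 32 WT day 0 peaks. A WT day 0 peak counted for Kcnrg was centred 0.090 kb from the TSS of Trim13, and a WT day 15 peak counted for Kcnk6 lay 0.354 kb from the TSS of Yif1b. The Kcnab3 peak of WT day 15 cells touched the body of Trappc1. Of the WT day 15 peaks in channel gene windows, 5 of 35 (14.3%) touched the body of another gene, against 4.13% of the peaks at other genes.

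Peaks of one channel gene no more than 5 kb apart formed 0 neighbouring pairs in Hira-null day 15, 3 in WT day 15, 10 in Hira-null day 0 and 2 in WT day 0 cells. The 10 lay at 7 genes, Kcnh6, Kcnip4, Kcnk12, Kcnn2, Kcnq3, Kcns3 and Kcnu1.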
